A study of Homo sapiens with 6 samples.

Results

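The regions described here are all RUNX1 and H3K27ac peaks called in 4 stretches of the human genome (hg19) around genes that direct myeloid blood cell fate: SPI1 (chr11, 47.35 to 47.45 Mb), IRF8 (chr16, 85.88 to 86.06 Mb), GFI1 (chr1, 92.9 to 93.02 Mb) and KLF4 (chr9, 110.2 to 110.3 Mb). The windows were defined by position, around genes chosen with earlier results of these data known, and any peak that touched a window was counted. They held 91 of the 145457 peaks in the 4 lists, with 54 in the SPI1 window, 33 in the GFI1 window, 4 in the IRF8 window and none in the KLF4 window. The cells were ME-1, an established human leukemia line with inv(16), a chromosome inversion that fuses CBFB with MYH11 and yields the protein CBFβ-SMMHC. Cells were given AI-10-49, a small molecule that blocks the binding of CBFβ-SMMHC to RUNX1, at 1 µM for 6 h, or DMSO for 6 h, so every group carries the inversion. Chromatin immunoprecipitation and sequencing (ChIP-seq) was directed at RUNX1, the DNA-binding partner of CBFβ, or at H3K27ac, a histone acetylation found at active promoters and enhancers. Each antibody and condition had 1 library and thus 1 peak list, so no spread between replicates is known and no test between conditions was made.

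SPI1 encodes PU.1, an ETS-family transcription factor that drives myeloid and B cell development. An enhancer upstream of the gene, which RUNX1 is known to bind in blood cells, sustains its expression. IRF8 is a transcription factor of monocyte and dendritic cell development, and GFI1 is a zinc finger repressor that favours neutrophils over monocytes. KLF4 is a zinc finger factor that promotes monocyte differentiation and halts the cell cycle in several cell types.

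RUNX1 recognises short DNA elements with the core TGTGGT or TGCGGT. Promoter sequences (250 bases before to 50 after a gene start, RefSeq, build GRCh38.p14) were at hand for 3 of the 4 genes, with 6 starts in all, and SPI1 had no entry. The 2 elements, each of 6 letters, were searched on both strands; they differ at 1 base, so a stretch of 6 letters matches at most one of them. Of the 6 promoters, 2 held a match, each a single TGTGGT on the gene's own strand. One belonged to GFI1 (chromosome 1, minus strand), with 41 bases between match and start, and the other to IRF8 (chromosome 16, plus strand), with 128 bases between. They are shown because GFI1 lay in a window with RUNX1 sites and IRF8 in a window with none, while both carried the same letters. Capitals mark the match, and each sequence runs 5′ to 3′ along its gene.
GFI1: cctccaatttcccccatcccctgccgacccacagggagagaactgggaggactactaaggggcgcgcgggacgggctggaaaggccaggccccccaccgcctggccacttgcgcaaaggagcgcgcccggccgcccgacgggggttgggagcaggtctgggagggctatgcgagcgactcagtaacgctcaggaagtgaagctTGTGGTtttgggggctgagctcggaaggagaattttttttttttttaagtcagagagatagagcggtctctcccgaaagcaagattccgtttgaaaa
IRF8: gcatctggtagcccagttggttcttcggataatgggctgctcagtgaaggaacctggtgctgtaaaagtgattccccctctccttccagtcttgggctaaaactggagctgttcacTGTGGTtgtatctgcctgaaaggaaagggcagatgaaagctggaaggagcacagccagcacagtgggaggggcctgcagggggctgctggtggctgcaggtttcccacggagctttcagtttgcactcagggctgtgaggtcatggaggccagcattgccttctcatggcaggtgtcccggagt
Among all 35116 promoters of the table, 13.1% held TGTGGT, 7.29% held TGCGGT and 19.6% held either. A match is a string of letters and not a bound site, and hg19 positions of the gene starts were not used here, so peaks were not assigned to these promoters.

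Each peak below is described by a few values. The first is the summit fragment count, the number of DNA fragments over the highest point of a peak, recovered from the deposited values and given per M (mega) reads of the library. The others are the authors' fold enrichment over local background, the authors' −log10 q, which ranks peaks inside a list, and the position. The libraries held an estimated 31.5 M (AI-10-49) and 33.8 M (DMSO) reads for RUNX1 and 37.0 M and 35.7 M for H3K27ac. Intervals are exact 95% Poisson intervals, or exact binomial ones for ratios, and cover counting error only.

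RUNX1 was called at 10 sites of the 4 windows after AI-10-49 and at 1 site after DMSO. The SPI1 window held 5 sites in AI-10-49 and 1 in DMSO, the GFI1 window 5 and 0, and the IRF8 and KLF4 windows none in either list. Of the 10 AI-10-49 sites, 9 overlapped no DMSO site, against a background of 85.1% of the 10319 AI-10-49 sites genome-wide, so the share was close to that of the whole list. The DMSO site of the windows was also in the AI-10-49 list, and of the 1701 DMSO sites genome-wide 8.82% were not. Cut into tiles of 100 kb, 0.698% of the genome held at least 5 AI-10-49 sites, as the SPI1 window did. For tiles of 120 kb, the size of the GFI1 window, the figure was 1.02%. Tiles ran over whole chromosomes, centromeres and stretches without genes included, while the windows were placed around genes. Most tiles held no site. In DMSO none was called in 95.3% of 100 kb, 94.5% of 120 kb and 92.1% of 180 kb tiles, the last being the size of the IRF8 window. In AI-10-49 the shares were 80.3%, 77.4% and 71.0%.

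The SPI1 site present in both lists was among the foremost RUNX1 sites of either condition. It lay at chr11:47429472-47430159 in AI-10-49 and at chr11:47429662-47430073 in DMSO, with summits 111 bp apart. Its summit held 174 fragments in AI-10-49, or 5.52 per M reads (4.73 to 6.4), against 94 fragments in DMSO, or 2.78 per M reads (2.25 to 3.41). The counting intervals did not meet, and the AI-10-49 over DMSO ratio was 1.98 (1.53 to 2.58). This passed 1.5 times, as 76.0% of the 1551 DMSO sites found in both lists did, while 0.451% were lower by as much. The median ratio over those sites was 2.1, so relative to the list this site did not stand out, at percentile 46.2. Among the 37 sites with a DMSO level between 20% lower and 25% higher it was at percentile 56.8. By −log10 q it ranked 48 of 10319 in AI-10-49 (173, fold enrichment 30.6) and 3 of 1701 in DMSO (80.8, fold enrichment 17.4). The AI-10-49 interval was 688 bp wide and the DMSO interval 412 bp. In the coding gene order of RefSeq (GRCh38.p14), MYBPC3 and SLC39A13 are the nearest neighbours of SPI1. No site was assigned to a gene, and one in the window may lie nearer to a neighbour than to SPI1.

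The other 4 SPI1 sites were listed in AI-10-49 only. The strongest of them, chr11:47416257-47416654, held 78 summit fragments, or 2.47 per M reads (1.956 to 3.09), with a fold enrichment of 8.65. Its summit lay 558 bp from 47.417 Mb, the position taken here for the upstream enhancer of SPI1, and the site was 13007 bp from the nearest DMSO site. The site at chr11:47421635-47422024 held 1.21 fragments per M reads (0.853 to 1.65), 4.82 kb from that mark. Sites at chr11:47399659-47399827 and chr11:47447975-47448226 held 0.825 per M reads each (0.539 to 1.21). The first of this pair was the weakest of the 10 by rank, at 9854 of 10319 with a −log10 q of 3.92. The 5 sites thus spread over 48.3 kb, and the site by the enhancer mark was the one with the second highest level. Its interval did not meet that of the strongest site, nor those of the other 3.

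**Figure D1:**
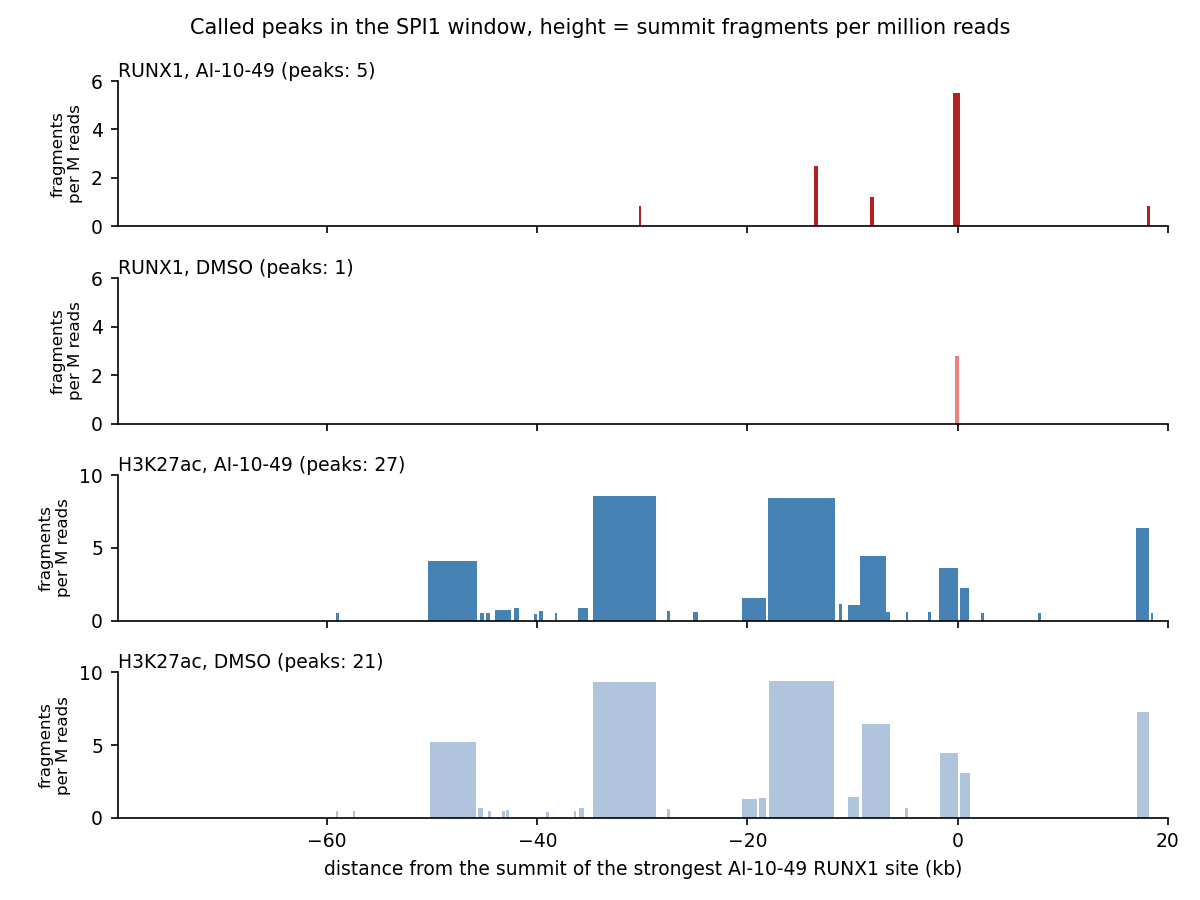
Called peaks in the SPI1 window by library, AI-10-49 above DMSO for each antibody. The horizontal axis gives the distance in kb from the summit of the strongest AI-10-49 RUNX1 site, bar width is the peak's width and bar height its summit fragments per M reads. RUNX1 has 5 bars in AI-10-49 and 1 in DMSO, while the tall H3K27ac regions stand at the same places in both conditions.

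In the GFI1 window all 5 RUNX1 sites were in the AI-10-49 list only, and the nearest DMSO site of the chromosome lay over 2 Mb away (2057 to 2142 kb from the sites). Of the AI-10-49-only sites genome-wide, 12.5% had such a gap, and the median gap was 286 kb. The strongest site, chr1:92950972-92952165, held 79 summit fragments, or 2.51 per M reads (1.98 to 3.12), with a fold enrichment of 7.79. It spanned 1194 bp, and 41 of the 10319 sites were at least that wide. Flanking sites lay close by on either side, at chr1:92949333-92949702 with 0.92 fragments per M reads (0.616 to 1.32) and at chr1:92952322-92952617 with 0.952 (0.642 to 1.36). The summits of these 3 sites were 1.85 kb and 1.09 kb apart.

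A separate site at chr1:92925331-92925869 held 55 summit fragments, or 1.75 per M reads (1.31 to 2.27), and had the highest fold enrichment of the window, 11.7. It stood 23.9 kb from the cluster. The last site, chr1:93010371-93010566, was the weakest of the 10 by level, with 18 fragments, or 0.571 per M reads (0.338 to 0.903). For scale, the weakest site called anywhere held 12 fragments in AI-10-49 and 11 in DMSO, and the median site held 1.05 and 0.918 per M reads. Where no DMSO site is listed, the fragment number there is unknown, so no ratio is given.

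**Figure D2:**
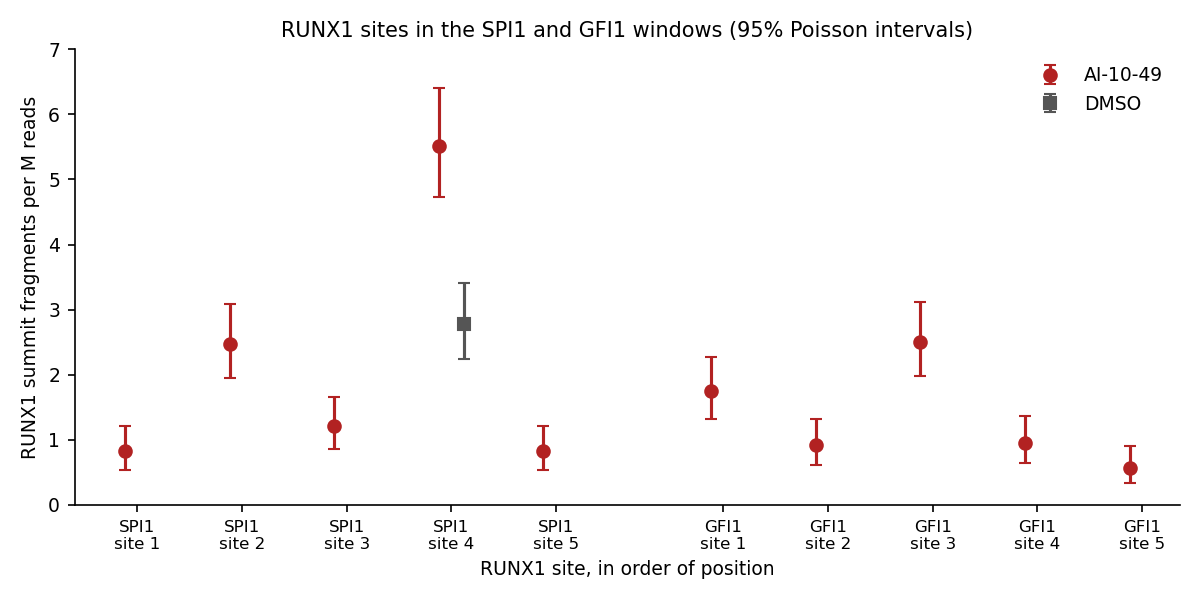
RUNX1 summit fragments per M reads (vertical axis) at the 10 AI-10-49 sites of the SPI1 and GFI1 windows in order of position, AI-10-49 as circles and DMSO as a square, with 95% Poisson intervals. SPI1 site 4 is the one with a DMSO value, 2.78, below its AI-10-49 value of 5.52.

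All RUNX1 sites but one lay in acetylated chromatin. Of the 10 AI-10-49 sites, 9 overlapped an H3K27ac region of AI-10-49 and the same 9 a region of DMSO, each with its summit inside, and the shares genome-wide were 86.1% and 89.8%. The DMSO site overlapped a region of each, as 73.7% of DMSO sites did for AI-10-49 regions and 81.8% for DMSO regions. The exception was the weak site at chr1:93010371-93010566, 1457 bp from the nearest AI-10-49 region and 570 bp from the nearest DMSO region. Summits fell 48 to 480 bp from the nearest AI-10-49 H3K27ac summit at the 5 SPI1 sites, where the genome-wide median was 320 bp, and 374 to 3761 bp at the 5 GFI1 sites. At the strongest GFI1 site the distance was 2824 bp to the AI-10-49 summit and 297 bp to the DMSO summit. The SPI1 site called in both lists sat at an edge, with its AI-10-49 summit 88 bp inside the end of one AI-10-49 region and 89 bp inside that of the DMSO region. The SPI1 site at chr11:47447975-47448226 did so too, with its summit 98 bp inside the end of the AI-10-49 region and 60 bp inside that of the DMSO region.

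H3K27ac covered much of the SPI1 and GFI1 windows in both conditions. In the SPI1 window 27 regions covered 34.5 kb in AI-10-49 and 21 regions covered 29.5 kb in DMSO, and 0.306% and 0.54% of 100 kb tiles were covered as much. The GFI1 window had 13 regions and 34.9 kb in AI-10-49, against 15 regions and 32.3 kb in DMSO, reached by 0.435% and 0.617% of 120 kb tiles. It held a single region of 16342 bp in AI-10-49 and 16252 bp in DMSO. Only 21 of 66350 and 28 of 67087 regions were at least that wide.

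**Figure D3:**
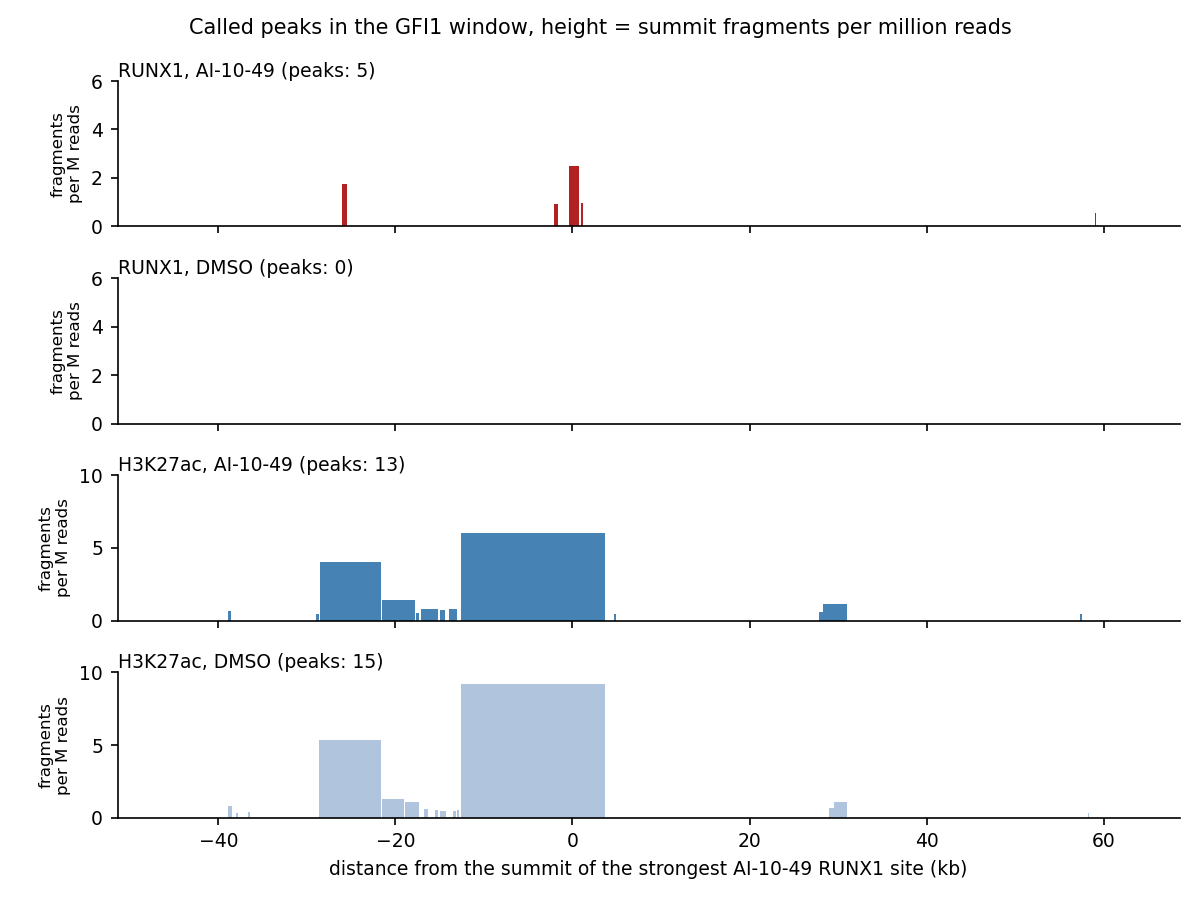
Called peaks in the GFI1 window by library, AI-10-49 above DMSO for each antibody. Axes are as for the SPI1 window, with distance in kb from the summit of the strongest AI-10-49 RUNX1 site and summit fragments per M reads. The 5 RUNX1 bars of AI-10-49 face an empty DMSO panel, and the widest H3K27ac region has a height of 6.03 in AI-10-49 and 9.22 in DMSO.

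Few peaks were called in the IRF8 window, which was common among tiles of its size, whether or not they hold a gene. Of 180 kb tiles, 51.9% held no H3K27ac region in AI-10-49 and 49.3% held none in DMSO. At least 2 regions were held by 41.0% and 43.3%. The window held 2 weak H3K27ac regions in each list, covering 0.827 kb in AI-10-49 and 0.953 kb in DMSO. One was shared, at chr16:85887787-85888252 with 0.541 fragments per M reads (0.33 to 0.835) in AI-10-49 and at chr16:85887589-85888339 with 0.616 (0.386 to 0.933) in DMSO. Their intervals overlapped, and the ratio was 0.877 (0.454 to 1.68). The others were chr16:85886969-85887329 in AI-10-49 only (0.406 per M reads) and chr16:85969640-85969841 in DMSO only (0.504 per M reads). The nearest RUNX1 site lay 46.7 kb outside the window in AI-10-49 and 230 kb outside in DMSO.

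No peak of any list touched the KLF4 window. The nearest H3K27ac regions were 153 kb to its left in AI-10-49 (chr9:110045465-110047130) and in DMSO (chr9:110045444-110047090), and 223 kb to its right in each. RUNX1 was called 154 kb to the left in AI-10-49, at chr9:110045175-110045508, and no closer than 3338 kb in DMSO. Bare stretches of this size were common over whole chromosomes. Of 100 kb tiles, 61.4% had no H3K27ac region in AI-10-49 and 58.8% had none in DMSO. A list shows only what passed its threshold, so these windows are without called peaks rather than without signal.

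Before H3K27ac levels are compared, a ceiling on the counts has to be given. The highest summit in the AI-10-49 list held 401 fragments, where 2 times its fragment length of 210 bp is 420, and the highest in the DMSO list held 383, where 2 times a length of 192 bp is 384. Counts can go no higher if each read start is counted once per strand. The 2 strongest SPI1 regions reached 75.2% and 74.5% of this limit in AI-10-49 and 86.7% and 87.5% in DMSO, and the widest GFI1 region 53.1% in AI-10-49 and 85.7% in DMSO. A ratio corrected for starts counted once, chosen after seeing the data, is therefore given beside each raw ratio of a strong region. Over all 47607 DMSO regions found in both lists the median raw ratio was 0.838 and the median corrected ratio 0.745. Both were lower in strong regions. With at least 4 fragments per M reads in DMSO the medians were 0.669 and 0.511 (7654 regions). Below that level they were 0.906 and 0.821 (39953 regions). The level is set on the DMSO count, which is also the divisor of the ratio. All 7654 strong DMSO regions were in both lists, but only 39953 of the 59433 weaker ones were. How far this selection makes the ratio fall with level was not tested. Each value below is to be read against regions of its own level.

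The 3 strongest shared regions of the SPI1 window had raw ratios slightly under 1, with intervals that reach past it. Their corrected ratios were lower, between 0.635 and 0.705. Both kinds of ratio were in the upper part of those of regions of similar strength. The intervals are of raw counts and leave the ceiling out, and none was computed for a corrected ratio. Over all 6 regions of the window with at least 4 fragments per M reads in DMSO, a level chosen after the values were seen, raw ratios ran wider, between 0.688 and 0.916, and corrected ones between 0.523 and 0.705. Regions of similar strength are those with a DMSO level between 20% lower and 25% higher. The region around the enhancer mark, chr11:47411924-47418240 in AI-10-49, held 8.46 summit fragments per M reads (7.55 to 9.45), against 9.41 (8.43 to 10.5) in chr11:47412037-47418173 of DMSO. The intervals overlapped, and the raw ratio was 0.899 (0.768 to 1.05), at percentile 86.8 among 1083 regions of similar strength. Its corrected ratio was 0.635, at percentile 79.2 of those regions.

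The region chr11:47395205-47401259 held 8.54 per M reads (7.63 to 9.54) in AI-10-49, against 9.33 (8.35 to 10.4) in DMSO. Its raw ratio was 0.916 (0.783 to 1.07) and its corrected ratio 0.667, at percentiles 89.4 and 85.1 of similar regions. The region chr11:47446954-47448197 held 6.38 (5.59 to 7.25) in AI-10-49 and 7.28 (6.43 to 8.23) in DMSO, with a raw ratio of 0.876 and a corrected one of 0.705, at percentiles 88.0 and 88.3. Each of these 3 regions carried an AI-10-49 RUNX1 site.

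The strongest RUNX1 site of the SPI1 window had its summit near the right end of one H3K27ac region, with another region just beyond. The first, chr11:47428221-47430031, held 3.65 (3.06 to 4.32) in AI-10-49 and 4.48 (3.82 to 5.23) in DMSO, a raw ratio of 0.814. The next one, chr11:47430190-47430988, held 2.22 (1.76 to 2.75) in AI-10-49 and 3.11 (2.56 to 3.75) in DMSO, a raw ratio of 0.713. Their corrected ratios were 0.694 and 0.614, at percentiles 83.4 and 68.7 of similar regions. The strongest region without a RUNX1 site, named after its values were seen, was chr11:47379516-47384164, with 4.14 per M reads in AI-10-49 against 5.24 in DMSO, a raw ratio of 0.789 and a corrected one of 0.655.

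In the GFI1 window the widest region had the lowest ratio of all 31 shared regions. It held 6.03 summit fragments per M reads (5.26 to 6.87) in AI-10-49, against 9.22 (8.25 to 10.3) in DMSO, and the intervals did not meet. The raw ratio was 0.654 (0.549 to 0.778), at percentile 26.7 of 1209 similar regions, and the corrected ratio was 0.376, at percentile 16.4. Its H3K27ac summit lay 2527 bp from that of DMSO, so the 2 counts are from different points of the region. It carried 3 of the 5 RUNX1 sites of the window. The region chr1:92922919-92929746, which carried one more, held 4.03 (3.41 to 4.73) in AI-10-49 and 5.38 (4.65 to 6.2) in DMSO, a raw ratio of 0.749 (0.6 to 0.932) and a corrected one of 0.61. Among 4819 similar regions these ratios were at percentiles 71.8 and 72.6. The third strongest, chr1:92929875-92933592 in AI-10-49, held 1.43 there and 1.29 in chr1:92929905-92932368 of DMSO, with a ratio of 1.11 (0.735 to 1.69).

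Most strong H3K27ac regions of the windows carried an AI-10-49 RUNX1 site and most weak ones did not. Of the 38 DMSO regions 8 overlapped one, with 13.8% in the whole list. At least 4 fragments per M reads in DMSO were found in 8 regions of the windows, and 7 of them overlapped an AI-10-49 RUNX1 site, against 51.7% of the 7654 regions of that level genome-wide. Below that level the count was 1 of 30, with 8.92% in the whole list. A ratio of 1/1.5 or lower was found in 1 of the 8 strong regions, with 49.5% in the whole list at that level, and by the corrected ratio in 5 of the 8, with 81.7% there. None was higher by 1.5 times (0.105%). The median raw ratio was 0.802 in the 8 regions and 0.669 over the list, and the median corrected ratio 0.645 and 0.511. The windows and the genes in them were chosen with earlier results of these data known, and 8 regions of 2 windows are few.

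**Figure D4:**
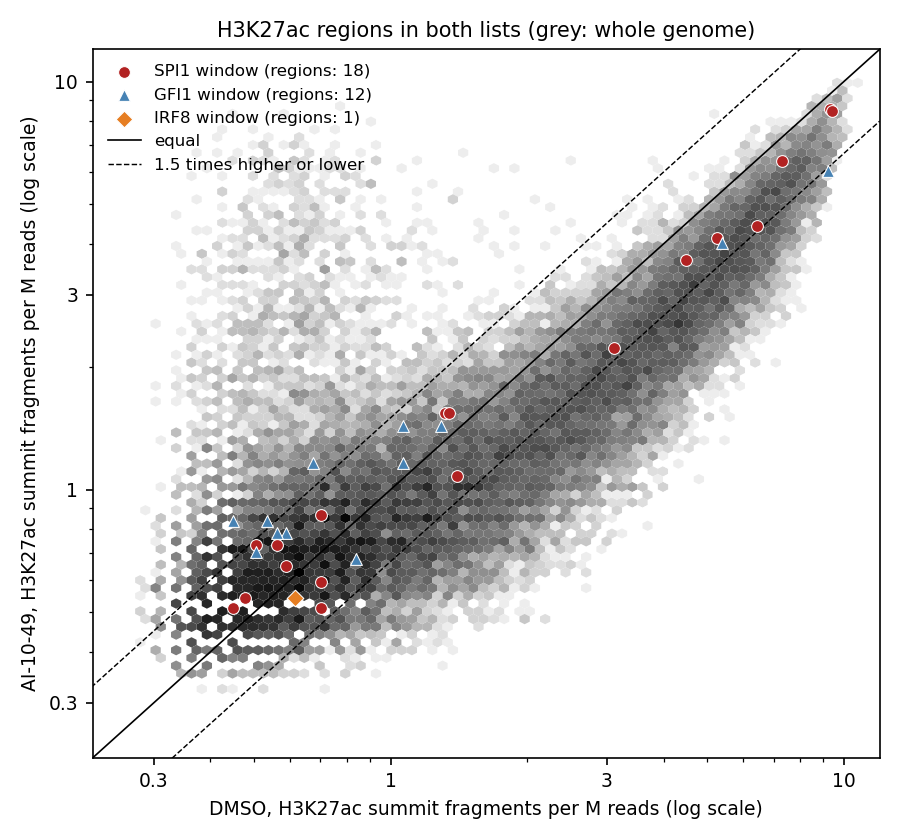
H3K27ac summit fragments per M reads of DMSO regions found in both lists, AI-10-49 on the vertical and DMSO on the horizontal axis, both on a log scale. Grey cells are all 47607 regions, darker where more fall, and coloured points are the 18 of the SPI1, 12 of the GFI1 and 1 of the IRF8 window. The strong SPI1 points lie between the line of equality and the lower dashed line, and the strongest GFI1 point lies just below that dashed line.

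Shared regions of the SPI1 window had a median ratio of 0.907 (18 regions, 0.688 to 1.45) and those of the GFI1 window 1.34 (12 regions, 0.654 to 1.87). These ratios were not all separate. In the GFI1 window 4 AI-10-49 regions, and in the SPI1 window 2, were each paired with several DMSO regions, whose ratios thus share an AI-10-49 count. The GFI1 median turned to 0.804 when only pairs with summits within 250 bp were kept. The corrected medians were 0.738 and 1.24. These medians mix levels. In the SPI1 window 12 of the 18 regions were below 4 fragments per M reads in DMSO, with a median raw ratio of 1.14. In the GFI1 window 10 of the 12 were, with a median of 1.37. For those 10, regions of similar strength had median ratios between 0.761 and 1.36, depending on level. The 10 regions were at percentiles 30.5 to 88.5 among them. A ratio of 1/1.5 or lower was found for 1 of the 31 (29.1% of the whole list), the widest GFI1 region. By the corrected ratio it was found for 7 of the 31 (41.8% of the whole list).

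Regions listed in 1 condition held 15 to 43 summit fragments in AI-10-49 and 12 to 18 in DMSO. Of the H3K27ac regions in the windows 15 of 42 in AI-10-49 overlapped no DMSO region (21.0% of the whole list), and 7 of 38 in DMSO overlapped no AI-10-49 region (29.0% of the whole list). Those of AI-10-49 only held 0.406 to 1.16 fragments per M reads and those of DMSO only 0.336 to 0.504, where the median regions of the whole lists held 0.757 and 0.813. The foremost AI-10-49-only region, chr11:47418646-47418970 beside the enhancer region of SPI1, held 43 summit fragments with a −log10 q of 17.5 and lay 472 bp from a DMSO region. Next in that window was chr11:47390108-47390455, with 24 fragments, 344 bp from a DMSO region. In the GFI1 window they were chr1:92979287-92979641 with 21 and chr1:93008704-93008913 with 16 fragments.

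The foremost DMSO-only regions held 13 to 18 fragments, with chr11:47393394-47393642 and chr11:47372363-47372626 at 18 fragments each and chr1:92914725-92914971 and chr1:93009609-93009800 at 15 and 13. Of these 4, the first lay 156 bp from an AI-10-49 region. Some neighbours were joined in one list. An AI-10-49 region overlapped 2 DMSO regions in 6 of 42 cases, such as chr11:47409431-47411743, and 7.82% of the whole AI-10-49 list met several. Of the 38 DMSO regions 2 met 2 AI-10-49 regions each, and 13.2% of the whole DMSO list met several. A ratio of 1.5 or more was found for 3 of the 31 DMSO regions in both lists (12.8% of the whole list). These were all in the GFI1 window, with 0.448 to 0.672 fragments per M reads in DMSO, and each was paired with a wider AI-10-49 region that also covered a neighbour. For 2 of them that region was the same one, chr1:92937459-92938401.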

How the data were processed

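The members and lists described here were chosen with earlier results of these data known. Groups come from the sample titles, and the 2 input libraries were not used here. The submitters' processing notes list MACS2 2.1.0, Picard 1.96, SAMtools 1.3, Bowtie2 2.1.0 and CASAVA 1.4 beside the build hg19, with no roles. Each deposited list gives, per peak, a ratio (fold enrichment at the summit) and −log10 p and −log10 q values, all computed by the authors per sample. The deposited score, 10 times −log10 q, was not used.

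Summit fragments were recovered from the authors' fold enrichment and −log10 p, since MACS2 compares a scaled whole number of fragments with a Poisson background. All peaks (100%) were solved to within 0.003 of −log10 p in each list, against 1.77% to 3.43% (median) at other scaling factors. On simulated lists (1696 to 1990 peaks) 100% came out exact. Read totals assume the shortest peak as fragment length and a genome of 2700000000 bp. Fragments were longer in AI-10-49 (1.13 times for RUNX1, 1.09 for H3K27ac), which raises raw ratios. The corrected ratio uses −ln(1 − fragments / 2 fragment lengths) per M reads, which counts starts per position rather than per fragment length. It still depends on the assumed lengths, through the limit and the read totals.

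Peaks overlapping by at least 1 bp were shared, and a DMSO peak was paired with the overlapping AI-10-49 peak of most fragments. A ratio past 1.5 was called. Named were all RUNX1 sites, and per window the 3 strongest shared H3K27ac regions, those with a RUNX1 site, and, of regions in 1 list, the 2 per list and window foremost by −log10 q. Of these, 1 H3K27ac region is not reported here. Positions are 1-based. No hg19 gene annotation or sequence was used, so exon, intron and promoter positions are not given. Bands, tiles and chromosome ends came from circlize 0.4.16. Python 3.11.15, numpy 2.4.6, pandas 2.3.3, scipy 1.17.1 and matplotlib 3.10.9 were used.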

Additional observations from a re-analysis of the deposited data

How the results depend on the processing

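Of 62 alternative values, 52 stayed within 1.5 times of a count, length or median ratio, or inside the interval of a share or single ratio, 9 moved and 1 reversed. Only a ratio past 1.5 times that changed sides of 1 was labelled reversed. Where none is named, the cause was not tested. At −log10 q of at least 10 the windows held 6 RUNX1 sites in AI-10-49 (10 before), and 18 H3K27ac regions in AI-10-49 and 18 in DMSO (42 and 38 before), since fewer regions pass. The shares of H3K27ac regions in both lists (64.3% of AI-10-49, 81.6% of DMSO) came to 47.6% and 52.6% with 50% of both intervals, to 45.2% and 50.0% with summits within 250 bp, and to 90.5% for AI-10-49 with a 1 kb margin. The GFI1 median H3K27ac ratio (1.34) was 0.804 with summits within 250 bp, which leaves fewer pairs. It thus changed sides of 1 but counts as moved. The SPI1 median H3K27ac ratio (0.907) changed sides too and counts as stayed. It was 1.08 when divided by the median of all regions in both lists, and 1.12 by the authors' fold enrichment. The RUNX1 ratio at SPI1 (1.98) was 0.946 when divided by the median of all sites in both lists, so its direction relative to the list is not that of its level. The correction for starts counted once was chosen after seeing the data. Near-full H3K27ac summits and the lowest counts, 12 in AI-10-49 and 11 in DMSO for RUNX1, limit what depth can show. No paired analysis was possible because every group held a single library.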
